A study of Mus musculus with 384 samples.

Results

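The genes described here are nuclear-encoded genes of the respiratory chain, measured in fluorescent cells sorted from the mouse retina. They were taken by symbol: every gene of the tables whose name starts with Nduf, Uqcr, Cox4 to Cox8 or Atp5, together with Sdha, Sdhb, Sdhc and Sdhd, and without names that mark pseudogenes. The rule found 92 of 32813 genes, and no measured value entered it. By known role, 36 belong to complex I, 4 to complex II, 8 to complex III, 20 to complex IV with its tissue isoforms, 15 to ATP synthase (complex V) and 7 to the assembly factors of complex I. The last 2, Atp5s and Atp5sl, are named after ATP synthase but are not structural subunits of it.

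All animals were untreated mice at postnatal day 17 that carried a Cre recombinase knocked into the Kcng4 locus (the allele Kcng4tm1.1(cre)Jrs) and a Cre-dependent yellow fluorescent protein reporter under Thy1 control (Thy1-stop-YFP Line#1). The sort therefore took cells in which Kcng4 had been active and in which the reporter was expressed. Single cells of 4 retinas from 2 mice, 96 wells for each retina, were sequenced after full-length cDNA synthesis by Smart-seq2. Each retina has a name made of the number of the mouse and an ending that is not explained in the labels: 1la and 1Ra, and 2la and 2Ra. Since each retina filled its own 96 wells, retina and set of wells cannot be told apart. The animal is the replicate (n = 2 mice), and the cells of a retina are not replicates of a condition.

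Values existed for 383 of the 384 cells, and 1 cell of 1la was not analysed here. Of these, 321 cells with at least 3000 genes at an expected count of 1 or more were kept, 70 from 1la and 80 from 1Ra, and 88 from 2la and 83 from 2Ra. Their median total per retina lay between 759554 counts (1Ra) and 1258580 counts (1la). The bipolar cell markers Otx2 and Trpm1 were found in 98.1% and 99.4% of the kept cells, Scgn in 74.8%, Grik1 in 20.2% and Prkca in 19.6%, and Sag, a rod gene, in 99.4%. By which of Sox6, Vsx1 or Ddit4l alone reached 20 TPM, 151 cells were Sox6-only, 60 Vsx1-only and 59 Ddit4l-only. A further 18 cells had several of these markers and 33 had none. TPM is transcript abundance scaled to the same total in each cell and corrected for transcript length, so it allows levels of different genes to be compared. TPM of a retina is the mean over its kept cells.

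The respiratory chain sits in the inner mitochondrial membrane. Complexes I and II take electrons from NADH and succinate, complex III passes them to cytochrome c and complex IV to oxygen, and ATP synthase uses the proton gradient built on the way to make ATP. The mitochondrial genome encodes a small catalytic set of the subunits, and nuclear genes supply the rest. The genes described here are those taken by the symbol rule. It missed some nuclear genes, and 9 other nuclear subunit and carrier genes served as a comparison list. Bipolar cells carry signals from photoreceptors to ganglion and amacrine cells, and retinal neurons are known for a high demand for ATP.

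Nuclear respiratory chain genes are known for promoters with sites of NRF1, of ETS-family factors such as GABP (also called NRF2) and of YY1, so the promoter sequences were searched for the core letters of these sites. RefSeq (GRCm38.p6) promoters were matched by symbol for 76 of the 92 members, which gave 82 promoters, and the 250 bases before each start were read on both strands. The NRF1 core GCATGCGC was in 9 of 82 promoters (11%), against 2.26% of all 32841 promoters. The ETS core CCGGAAG was in 13 (15.9%), against 6.91% of all promoters. The YY1 core AAGATGGC was in 2 (2.44%), against 1.56%. Among more general elements, the GC box GGGCGG was in 36.6% against 32.7%, the CCAAT box in 42.7% against 33.9% and the TATA box letters TATAAA in 8.54% against 12.4%. A match describes these letters only and shows no binding, and 61 of the 82 promoters had none of the NRF1, ETS and YY1 cores. The median GC content was 56.8% in the members' promoters and 52.4% in all promoters.

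The following stretches are the 150 bases up to the start of 6 members, 5' to 3' on the strand of the gene, with matches to these motifs in capitals. Ndufb6 and Ndufa4 are shown because they stood among the largest differences between retinas, Ndufa6 because it carries an NRF1 core and was called by DESeq2 in the same comparison, and Uqcrh for an ETS core. Atp5b is shown as the most abundant member and Sdhb as a gene of complex II, which differed least between retinas. They lie at chr4:40279422-40279571 (Ndufb6, minus strand), chr6:11907451-11907600 (Ndufa4, minus), chr15:82354292-82354441 (Ndufa6, minus), chr4:116075071-116075220 (Uqcrh, minus), chr10:128083157-128083306 (Atp5b, plus) and chr4:140961121-140961270 (Sdhb, plus).
Ndufb6: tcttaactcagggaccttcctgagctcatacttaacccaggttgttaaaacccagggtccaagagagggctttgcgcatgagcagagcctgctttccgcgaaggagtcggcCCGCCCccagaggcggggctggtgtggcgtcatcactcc
Ndufa4: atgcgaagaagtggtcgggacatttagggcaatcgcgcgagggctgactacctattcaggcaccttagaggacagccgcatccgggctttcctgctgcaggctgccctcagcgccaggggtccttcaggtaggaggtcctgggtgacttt
Ndufa6: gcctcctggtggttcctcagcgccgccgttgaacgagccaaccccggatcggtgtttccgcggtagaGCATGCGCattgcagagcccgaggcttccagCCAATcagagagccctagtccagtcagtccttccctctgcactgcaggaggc
Uqcrh: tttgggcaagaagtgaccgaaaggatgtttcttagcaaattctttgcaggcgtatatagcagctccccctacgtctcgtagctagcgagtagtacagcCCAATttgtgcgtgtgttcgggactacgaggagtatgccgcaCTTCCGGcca
Atp5b: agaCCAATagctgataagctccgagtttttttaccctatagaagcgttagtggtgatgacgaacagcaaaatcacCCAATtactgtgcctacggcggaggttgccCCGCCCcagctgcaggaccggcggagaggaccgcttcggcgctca
Sdhb: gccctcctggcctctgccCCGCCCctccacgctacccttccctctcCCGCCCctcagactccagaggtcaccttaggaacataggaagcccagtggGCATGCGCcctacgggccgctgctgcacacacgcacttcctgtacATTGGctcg
In the stretch shown, Ndufb6 has a GC box (read as CCGCCC) and Ndufa4 none of the motifs. Ndufb6 also has an ETS core in the longer stretch searched, outside the bases shown. Ndufa6 has an NRF1 core and a CCAAT box, Uqcrh a CCAAT box and an ETS core read as CTTCCGG next to the start, Atp5b a pair of CCAAT boxes and a GC box, and Sdhb GC boxes, an NRF1 core and a CCAAT box read as ATTGG.

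Most members were abundant. The mean TPM over the 4 retinas was at least 100 for 59 of the 92 members, at least 20 for 80 and at least 1 for 88. Together the members held 15618 TPM in 1la and 21516 in 1Ra, and 15833 in 2la and 23317 in 2Ra. Complex I made up 33.1% of this sum, ATP synthase 31.1%, complex IV 22.6%, complex III 8.84%, complex II 3.13% and the complex I assembly factors 0.958%.

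**Figure D1:**
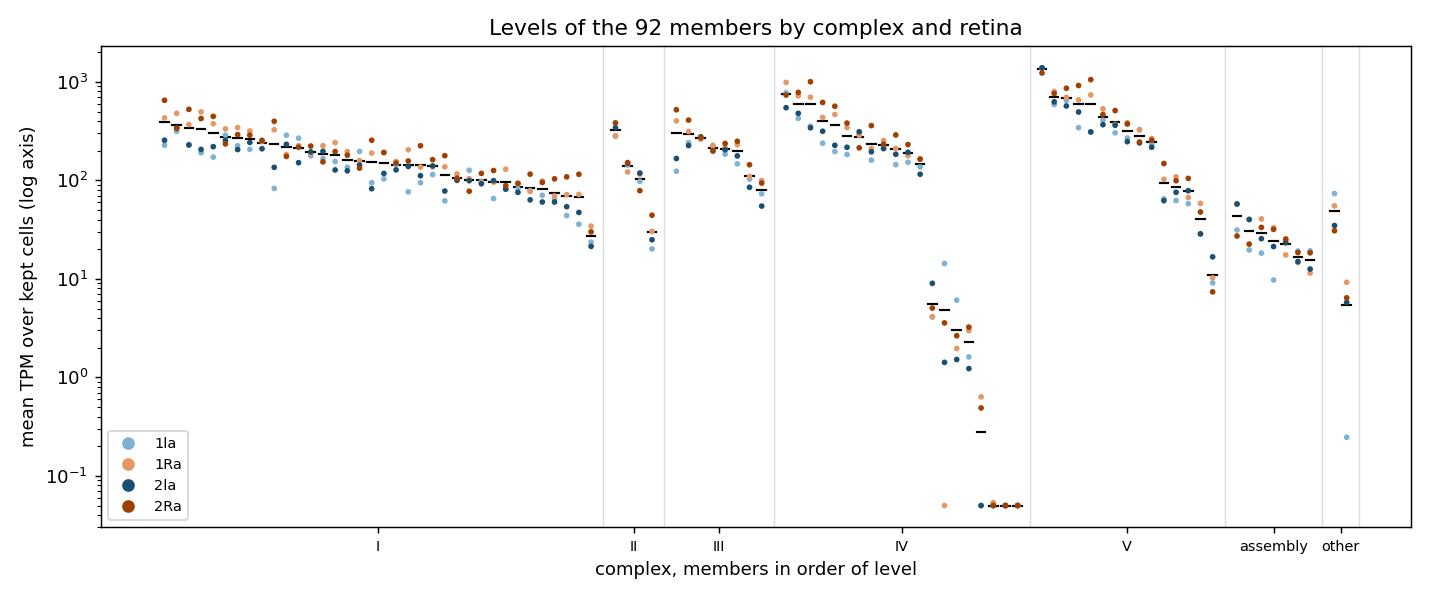
Mean TPM of each of the 92 members (log axis) in the 4 retinas, ordered by level within each complex; dots are retinas, dashes the mean of the 4, and values under 0.05 TPM, zeros included, are drawn at 0.05. Atp5b leads at a mean of 1348 TPM, and the tissue isoforms of complex IV lie far below its other subunits.

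In ATP synthase the catalytic head led. Atp5b, the catalytic beta subunit, was the most abundant member, at 1390 TPM in 1la and 1382 in 1Ra, and 1389 in 2la and 1231 in 2Ra (1348 ± 77.9, SD over 4 retinas), and it was found in all 321 cells. Atp5a1, the alpha subunit, was at a mean of 695 TPM and Atp5c1, the gamma subunit of the rotor, at 694 TPM, levels that did not differ beyond their spread of 103 and 124 TPM (SD). The mature subunit of the membrane ring is known to be encoded, in identical form, by 3 genes, whose mean levels were 603 TPM for Atp5g3, 243 TPM for Atp5g1 and 10.9 TPM for Atp5g2. How reads shared by these copies were divided is not given in the sources used here, so their split is uncertain.

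Complex IV was led by Cox4i1, the ubiquitous form of subunit 4, at 775 TPM in 1la and 988 in 1Ra, and 547 in 2la and 735 in 2Ra. Cox8a, a small membrane subunit, followed at a mean of 603 TPM and Ndufa4, named after complex I but known as a subunit of complex IV, at 600 TPM. In complex I the highest were Ndufab1, the mitochondrial acyl carrier protein (391 TPM), and the accessory subunits Ndufb9 (368.5 TPM) and Ndufa5 (339 TPM). In complex III, Uqcrb, a small accessory subunit, had 304 TPM, and the core proteins Uqcrc2 and Uqcrc1 had 298 and 269.9 TPM. The neighbours in these orders lay within 1 SD over the retinas of each other. In complex II, Sdha, the flavoprotein, was at 323 TPM, above Sdhb, the iron-sulfur protein, at 141 TPM and Sdhc, a membrane anchor, at 103 TPM. The complex I assembly factors Ndufaf3, Ndufaf7 and Ndufaf4 were at 43.6, 30.6 and 29.5 TPM.

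Tissue isoforms of complex IV were rare. Cox4i2, the lung form of subunit 4, had at least 1 count in 24 of 321 cells (7.48%, 95% Clopper-Pearson interval 4.85% to 10.9%), and Cox6b2, the testis form of subunit 6b, in 26 cells (8.10%, 5.36% to 11.6%). Cox7a1, a heart and muscle form, was found in 7 cells, and Ndufa4l2, known as a hypoxia-induced relative of Ndufa4, in 2. These genes were thus seen in few cells, while their common counterparts Cox4i1, Cox6b1, Cox7a2 and Ndufa4 were found in 320, 301, 292 and 304 cells. Cox6a2, Cox7b2 and Cox8c reached an expected count of 1 in 0 of 321 cells, which allows a share of up to 0.935% (the limit for a count of 0 is set at 3 counts). Intervals and limits cover counting error only. Free RNA in a well was not measured, so a rare count need not come from the cell itself.

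Cox8b, the heart and muscle form of subunit 8, was found in 12 of 151 Sox6-only cells (7.95%, 4.17% to 13.5%), in 0 of 60 Vsx1-only cells, which allows up to 5%, and in 1 of 59 Ddit4l-only cells. The intervals of the 3 groups overlapped. Its level in the Sox6-only sums was 2.96 CPM in 1la and 1.19 in 1Ra, and 0.391 in 2la and 0.801 in 2Ra, so it stayed low where it was found.

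The comparison of Ra with la retinas asks whether the retinas of an animal gave the same values, and most members had higher values in the Ra retina of both mice. The median share of the members in a cell's TPM was 1.51% in 1la (quartiles 1.16% to 1.88%) and 2.02% in 1Ra (1.77% to 2.38%), and 1.49% in 2la (1.26% to 1.81%) and 2.23% in 2Ra (1.87% to 2.66%). Both Ra retinas lay above both la retinas, by 1.34 times in mouse 1 and 1.50 times in mouse 2. Depth moved with the side as well: the median total was 1258580 counts in 1la and 1193940 in 2la, against 759554 in 1Ra and 1052930 in 2Ra, and the median number of genes 6667 and 6876 against 5317.5 and 6174. With 2 retinas a side no permutation test of this share can pass, and none was made. In the same cells, transcripts of the mitochondrial genome took 3.76% in 1la and 8.10% in 1Ra, and 3.79% in 2la and 8.45% in 2Ra, and transcripts of cytosolic ribosomal proteins 1.90%, 2.51%, 2.03% and 2.65%. The part of depth and of these transcripts in the members' difference was not tested. With TPM rescaled after removing mitochondrially encoded genes, the members' ratio of Ra to la was 1.39 in mouse 1 and 1.65 in mouse 2.

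**Figure D2:**
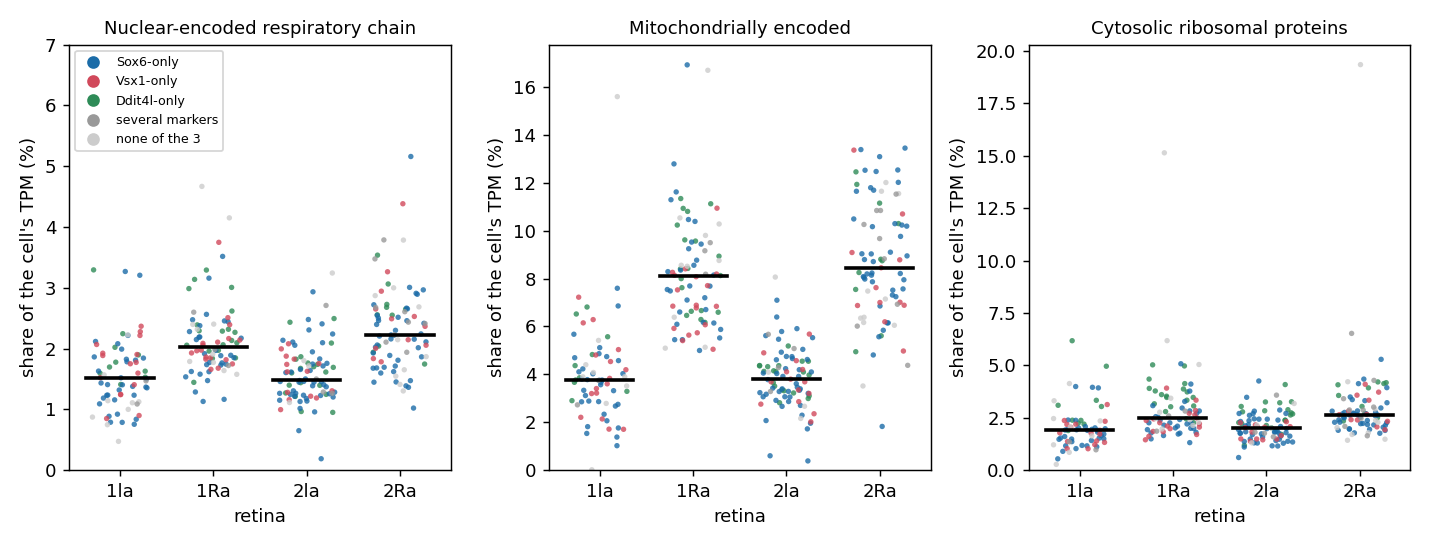
Share of each kept cell's TPM (percent) held by the members and by the comparison sets, by retina, with 1 dot for each cell coloured by marker group. The median share of the members is 1.51% in 1la and 1.49% in 2la, and 2.02% in 1Ra and 2.23% in 2Ra.

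No gene passed in edgeR's quasi-likelihood test on counts summed per retina: 0 of 18059 genes tested and 0 of the 89 members tested had a Benjamini-Hochberg adjusted p under 0.05 (0% called). At an unadjusted p under 0.05, 32 of 89 members were higher in Ra, where 6.16% of all genes were, and 0 of 89 were higher in la, where 3.95% of all genes were. The 32 became 11 without 1la, 11 without 2Ra, 18 without 2la and 23 without 1Ra. DESeq2 called 15 of 88 members higher in Ra, with 3.10% of all genes called in that direction, and 0 members higher in la, with 1.23% of all genes. Both Ra retinas lay above both la retinas in CPM (counts scaled to a fixed total of the summed library) for 61 of 89 members, against 21% of all genes, and the reverse held for 1 member, against 22.3% of all genes. The median log2 fold change of the 89 members was 0.51 and that of all genes tested was -0.02. It was 0.42 in mouse 1 and 0.58 in mouse 2, and 77 of 89 members had a positive value. The remaining 3 members, Cox6a2, Cox7b2 and Cox8c, did not pass the filter on low counts. With 2 retinas a side, these p-values measure the spread between these retinas. Both fits took the retinas without their pairing by mouse, and the DESeq2 calls were not checked with it.

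The 5 largest differences among members at 50 CPM or more were found in 4 complexes. Ndufb6, an accessory subunit of complex I on chromosome 4 (mm10, 40270591 to 40279421), was at 82.9 TPM in 1la and 327 in 1Ra, and 136 in 2la and 398 in 2Ra. Uqcrb of complex III, on chromosome 13 (66900576 to 66905350), was at 124 TPM in 1la and 402 in 1Ra, and 167 in 2la and 522 in 2Ra. The Ra retina was 3.94 and 2.93 times its la counterpart in mouse 1 and mouse 2 for Ndufb6 and 3.25 and 3.13 times for Uqcrb, with no overlap between the sides.

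Atp5j, the F6 subunit of the ATP synthase stalk, was at 308 TPM in 1la and 738 in 1Ra, and 311 in 2la and 1055 in 2Ra. Ndufa4 of complex IV was at 355 TPM in 1la and 699 in 1Ra, and 342 in 2la and 1004 in 2Ra. Cox5a, a matrix-side subunit of complex IV, was at 196.5 TPM in 1la and 467 in 1Ra, and 227 in 2la and 566 in 2Ra. In each of these the 2 la retinas lay close together and the 2 Ra retinas well above them. The log2 fold change was 1.85 ± 0.32 (SE) for Ndufb6, 1.83 ± 0.30 for Uqcrb, 1.54 ± 0.24 for Atp5j, 1.42 ± 0.27 for Ndufa4 and 1.38 ± 0.23 for Cox5a. Each had an adjusted p of 0.351 in edgeR's quasi-likelihood test and did not pass, and each was among the 15 that DESeq2 called. The other 10 were Ndufb5, Ndufs4, Ndufc2, Ndufab1, Ndufa5 and Ndufa6 of complex I, Cox6c, Cox6b1 and Cox8a of complex IV and the ring subunit gene Atp5g3. None of the 15 is a core subunit of complex I or III or belongs to complex II or the F1 head.

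**Figure D3:**
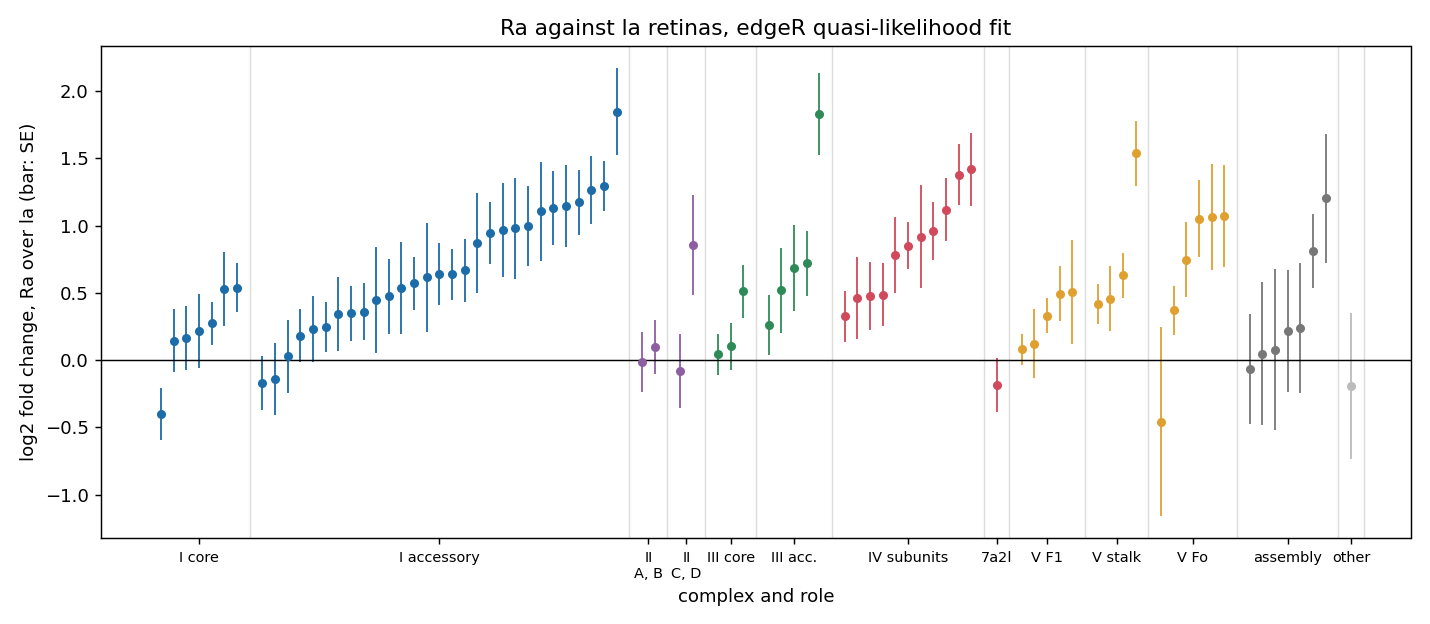
Log2 fold change of Ra over la retinas for the members tested (edgeR fit on retina sums), grouped by complex and role; bars are the SE, and tissue isoforms and Atp5s are left out. Accessory subunits of complexes I and III and the subunits of complex IV lie mostly above 0, and complex II and the core of complex III lie near 0, with Uqcrc2 (0.51) and Sdhd (0.86) above.

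Some abundant members had a log2 fold change near 0. Uqcrc1, a core protein of complex III, was at 269 TPM in 1la and 262 in 1Ra, and 277 in 2la and 271.5 in 2Ra, and its log2 fold change was 0.04 ± 0.15. Atp5b had a log2 fold change of 0.08 ± 0.12. Sdha had one of 0.10 ± 0.20, with 281 and 284 TPM in 1la and 1Ra and 343 and 384 TPM in 2la and 2Ra, so its mice lay further apart than its sides. Ndufv1, the NADH-binding core subunit of complex I on chromosome 19 (4007499 to 4012755), was the only member whose CPM was higher in both la retinas than in both Ra retinas, and it was at 288 TPM in 1la and 183 in 1Ra, and 232 in 2la and 175 in 2Ra. Its log2 fold change was -0.40 ± 0.19, with an adjusted p of 0.592 in edgeR's test. Among members at 50 CPM or more, the next lowest, Cox7a2l, a factor that joins complexes III and IV, Ndufa10, Ndufa8 and Sdhc, were at -0.18 ± 0.20, -0.17 ± 0.20, -0.14 ± 0.27 and -0.08 ± 0.27, each within its SE of 0, and their retinas overlapped in CPM.

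Grouped by role, the 29 accessory subunits of complex I had a median log2 fold change of 0.64 and the 7 core subunits one of 0.22. In complex III the median was 0.69 over 5 accessory subunits and 0.10 over the 3 core subunits taken by the rule. The 11 common subunits of complex IV had a median of 0.85, with 11 of 11 positive. In ATP synthase it was 0.33 for the F1 head, 0.54 for the stalk and 0.90 for the membrane part Fo. Complex II had 0.04 and the assembly factors 0.21. These medians describe the groups, and differences between roles were not tested. In summed TPM, Ra was 1.43 times la in mouse 1 and 1.49 times in mouse 2 for complex I, 1.51 and 1.67 times for complex IV, 1.29 and 1.39 times for ATP synthase, and 1.02 and 1.04 times for complex II.

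Roles also differed in transcript length: the median was 918 bases for the accessory and 1661 bases for the core subunits of complex I, 605 and 1896 bases for those of complex III and 765 bases for the common subunits of complex IV. Over the 8754 genes with a mean of at least 10 CPM, the log2 fold change of Ra over la had a Spearman correlation of -0.33 with transcript length and -0.25 with GC content. Over the 79 members at that level it was -0.24 and -0.28. These are correlations across genes, which share the same 4 libraries, and are descriptions only. Each gene was given the length and GC content of 1 annotated transcript: that with the longest coding region and, among equals, the longest one. Some members thus have long transcripts, such as 6310 bases for Atp5l and 4715 bases for Atp5g1. Whether these are the forms expressed was not tested, and the bins and offsets below use these lengths. Among transcripts of up to 750 bases the median was 0.54 over all 172 genes and 0.73 over 16 members, and above 5000 bases it was -0.20 over all genes. In a fit with offsets for length and GC content, chosen after the data were seen, the members' median was 0.43, that of all genes 0.01, and 24 members had an unadjusted p under 0.05. The medians by role in that fit were 0.58 and 0.16 for accessory and core subunits of complex I and 0.55 and 0.09 for those of complex III. For the common subunits of complex IV it was 0.72, and for all 17 complex IV members tested 0.51.

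**Figure D4:**
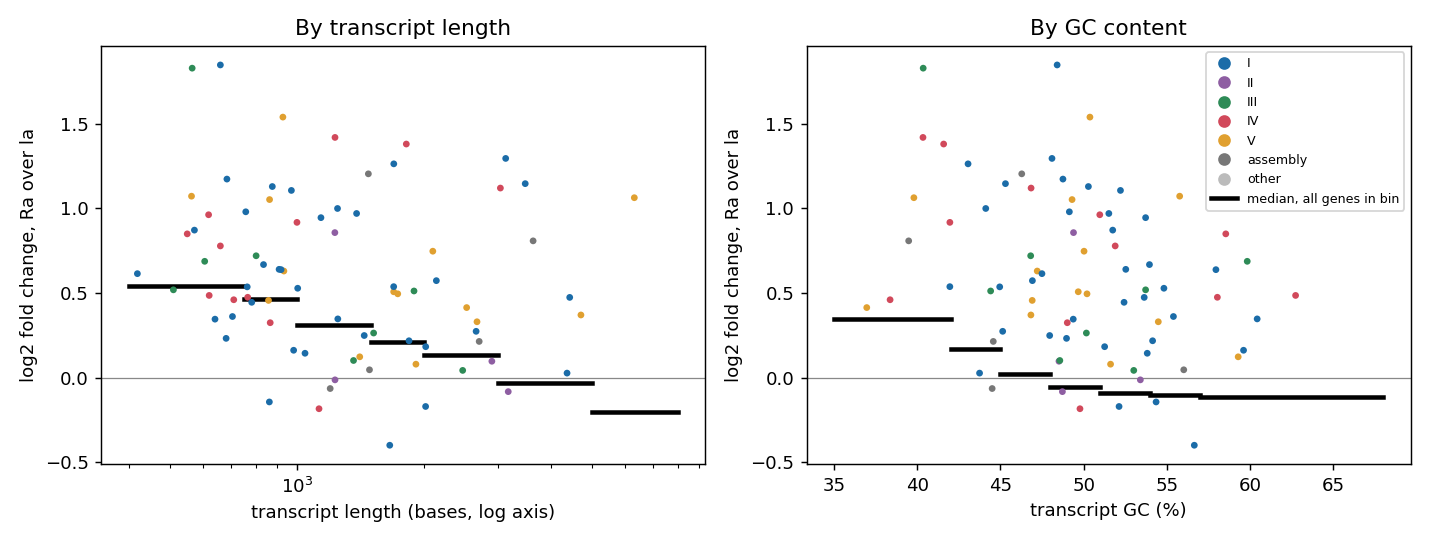
Log2 fold change of Ra over la retinas against transcript length (log axis, bases) and transcript GC content (percent) for members with a mean of at least 10 CPM, coloured by complex; the black line is the median of all genes in each bin. The line falls with length, from 0.54 at up to 750 bases to -0.20 above 5000 bases. In each length bin shown the members' median lies above it, with 1 member (Atp5l) above 5000 bases. Lengths are those of 1 annotated transcript per gene, which can be longer than the one expressed.

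Other gene sets also had higher values in Ra retinas. All 13 mitochondrially encoded subunits had a positive log2 fold change (median 1.29), and DESeq2 called all 13. Of 83 cytosolic ribosomal protein genes 79 were positive (median 0.65), and DESeq2 called 26. Other nuclear subunit and carrier genes, outside the symbol rule, were positive in 7 of 9 (median 0.49), and DESeq2 called 2. Mitochondrial import and carrier genes were positive in 12 of 15 (median 0.38), other assembly factors in 26 of 37 (0.25) and citric acid cycle genes in 10 of 16 (0.27). Glycolytic genes were positive in 8 of 17 (median -0.05) and regulators of mitochondrial genes in 5 of 15 (-0.20). None of these genes was called by edgeR. Among markers of other cells, the Müller glia list was positive in 7 of 8 (median 0.78), the amacrine list in 7 of 8 (1.52) and the rod list in 6 of 10 (0.14). The cone list was positive in 6 of 7 (median 0.59), the bipolar list in 9 of 12 (0.41) and the horizontal cell list in 2 of 4 (-0.70), with 1 of its genes called lower by DESeq2. The ganglion cell list was positive in 1 of 6 (median -0.96) and the endothelium list in 1 of 2 (2.22). The microglia list was positive in 1 of 3 (median -2.45), with 1 gene called lower by DESeq2. Summed TPM of the rod list was 3212 in 1la and 1310 in 1Ra, and 1249 in 2la and 2863 in 2Ra, so it did not follow the side. That of the Müller list was 640, 403, 345 and 617.5 TPM and that of the amacrine list 67.6, 26.8, 56.6 and 141 TPM, in the same order. That of the horizontal list was 128, 51.7, 135 and 48.4 TPM, higher in the la retina of both mice. Their part in the members' difference was not tested, and without the 95 cells at 1000 rod TPM or more the share of the members was 1.57% in la and 2.28% in Ra retinas.

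Members with and without the NRF1 core had a median log2 fold change of Ra over la of 0.64 (9 members) and 0.52 (66 members). With and without the ETS core it was 0.72 (13 members) and 0.51 (62 members). These are descriptions of small sets.

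The comparison of marker groups asks whether kinds of bipolar cells in the sort differed in respiratory chain transcripts. Counts were summed per mouse and marker group, with the mouse as a block. The Sox6-only sums enter both contrasts with Sox6-only cells and the Ddit4l-only sums both contrasts with Ddit4l-only cells, so the contrasts are not independent. The median share of the members in a cell's TPM was lowest in Sox6-only cells in each retina, at 1.40% in 1la and 1.89% in 1Ra, and 1.45% in 2la and 2.16% in 2Ra. Vsx1-only cells had 1.76%, 1.97%, 1.62% and 2.43%, and Ddit4l-only cells 1.74%, 2.27%, 1.65% and 2.60%. Each group's share was again higher in the Ra than in the la retina of each mouse, and the quartile ranges of the 3 groups overlapped within each retina. By share of the summed counts, Vsx1-only cells were lowest in the la retinas. They held 0.983% in 1la and 0.906% in 2la, against 1.00% and 0.957% in Sox6-only cells. In the Ra retinas Sox6-only cells were lowest by counts too, at 1.17% in 1Ra and 1.28% in 2Ra.

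**Figure D5:**
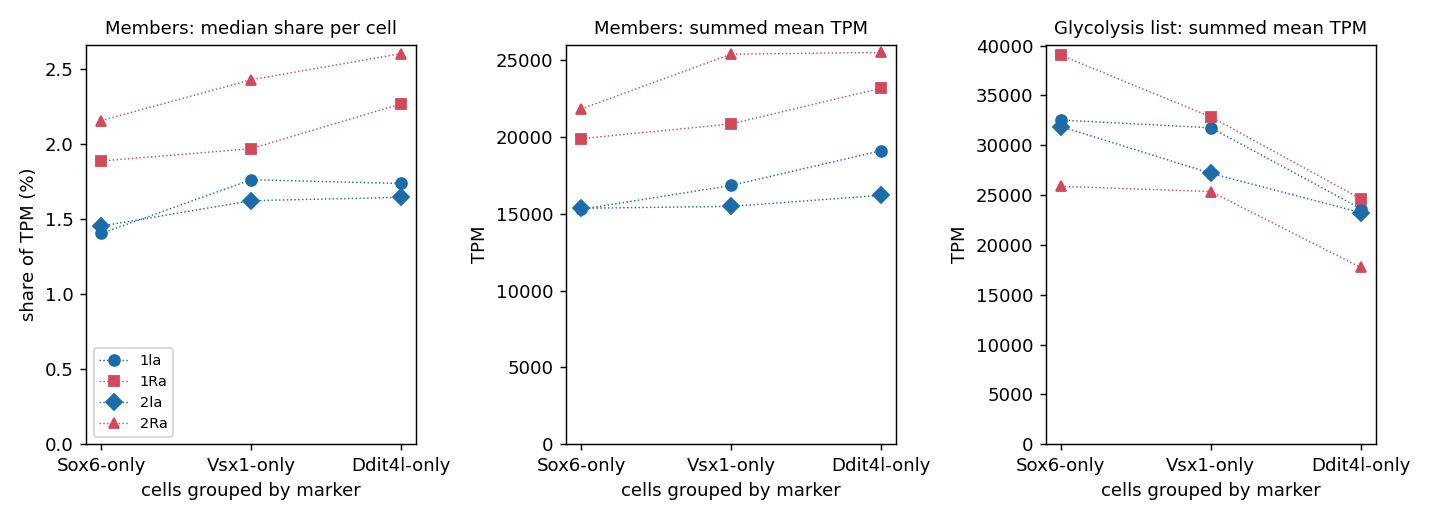
Median share of the members in a cell's TPM (percent), summed mean TPM of the members and summed mean TPM of the glycolysis list in Sox6-only, Vsx1-only and Ddit4l-only cells, with 1 line for each retina. The members' median share of TPM is lowest in Sox6-only cells in each retina, and the glycolysis sum is lowest in Ddit4l-only cells in each retina.

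No member passed in edgeR's quasi-likelihood test with Benjamini-Hochberg adjustment over 16638 genes in any contrast, out of 88 members tested. Between Sox6-only and Vsx1-only cells edgeR called 0% of all genes, and 1 member had an unadjusted p under 0.05 (8.58% of all genes). DESeq2 called 0 of 86 members (6.15% of all genes). The median log2 fold change was -0.07, beside 0.06 over all genes. In each of the 4 retinas 6 members were higher in Sox6-only cells (11.7% of all genes) and 13 in Vsx1-only cells (8.22%).

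Between Sox6-only and Ddit4l-only cells edgeR again called 0% of all genes, 3 members had an unadjusted p under 0.05 (8.03% of all genes) and DESeq2 called 2 of 86 (5.77%). The median was -0.19, beside 0.08 over all genes, and 68 of 88 members were lower in Sox6-only cells. By mouse it was -0.33 and -0.10. In each of the 4 retinas 6 members were higher in Sox6-only cells (11.2% of all genes) and 17 in Ddit4l-only cells (7.33%).

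Between Vsx1-only and Ddit4l-only cells edgeR called 7 genes (0.0421% of all genes) and 0 members. The 7 genes became 0 without 1la or without 1Ra, 4 without 2Ra and 11 without 2la. An unadjusted p under 0.05 was found for 4 members (12.8% of all genes), and DESeq2 called 1 of 86 (12.1%). The median was -0.12, beside 0.01 over all genes, and it changed sign between the mice, at -0.20 and 0.06. In each of the 4 retinas 1 member was higher in Vsx1-only cells (9.77% of all genes) and 14 in Ddit4l-only cells (9.23%).

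Ndufv1 was the member furthest toward Sox6-only and Vsx1-only cells in the contrasts with Ddit4l-only cells, among members at 50 CPM or more. Its level in Ddit4l-only cells was 86.9 CPM in 1la and 112 in 1Ra, and 131 in 2la and 85.95 in 2Ra. In Sox6-only cells it was 315, 157, 191 and 170 CPM, and in Vsx1-only cells 324, 153, 222 and 177 CPM, in the same order. It was lower in Ddit4l-only cells than in either other group in each of the 4 retinas. The log2 fold change was 1.02 ± 0.26 for Sox6-only over Ddit4l-only cells (adjusted p 0.508 by edgeR, 0.030 by DESeq2) and 1.07 ± 0.26 for Vsx1-only over Ddit4l-only cells (0.252 by edgeR, 0.0064 by DESeq2). DESeq2 called it in both contrasts, which share the Ddit4l-only sums, and edgeR in neither.

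The next members toward Sox6-only and away from Ddit4l-only cells were Atp5sl (0.53 ± 0.63, in 3 of 4 retinas), Ndufs7, a core subunit of complex I (0.40 ± 0.25, in 4 of 4), Ndufa13 (0.26 ± 0.27, in 4 of 4) and Ndufv3 (0.25 ± 0.25, in 2 of 4). Toward Vsx1-only and away from Ddit4l-only cells, Ndufv1 was followed by Ndufc1 (0.84 ± 0.43), Ndufb7 (0.74 ± 0.53), Uqcrq (0.60 ± 0.32) and Ndufa13 (0.47 ± 0.27), each in 3 of 4 retinas. None of these passed in edgeR's or DESeq2's adjusted test.

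Members with more in Ddit4l-only cells included Ndufb9, an accessory subunit of complex I. It was at 242, 235, 159 and 191 CPM in Ddit4l-only, 112, 165, 137 and 128 CPM in Sox6-only and 111, 174, 111 and 107 CPM in Vsx1-only cells of 1la, 1Ra, 2la and 2Ra. Its log2 fold change was -0.58 ± 0.23 for Sox6-only and -0.70 ± 0.23 for Vsx1-only against Ddit4l-only cells, and Ddit4l-only cells were highest in each retina. Cox7a2l was lower in Vsx1-only cells than in either other group in each retina, with a log2 fold change of 0.44 ± 0.18 for Sox6-only over Vsx1-only and -0.62 ± 0.18 for Vsx1-only against Ddit4l-only cells. Sdhc, an anchor of complex II, was at 35.4, 47.3, 48.2 and 47.5 CPM in Sox6-only and 115, 79.2, 109 and 38.6 CPM in Ddit4l-only cells, a log2 fold change of -1.03 ± 0.35 that held in 3 of 4 retinas. Ndufa11, of the membrane arm of complex I, and Cox5a were at -0.71 ± 0.31 and -0.59 ± 0.26 in the same contrast, with Ddit4l-only cells higher in 4 of 4 retinas, and Ndufa2 was at -0.54 ± 0.47 (3 of 4). Against Vsx1-only cells, Ddit4l-only cells also had more Cox7b (-0.63 ± 0.28, 4 of 4 retinas), Sdhc (-0.62 ± 0.34, 3 of 4) and Ndufa10 (-0.55 ± 0.33, 3 of 4). The assembly factor Ndufaf6 was at 4.74 CPM in Vsx1-only and 10.5 CPM in Ddit4l-only cells (-1.12 ± 0.79). It was found in only 4 of 60 Vsx1-only and 9 of 59 Ddit4l-only cells, and in 1la it was higher in Vsx1-only cells (11.8 against 9.49 CPM). None of these passed in edgeR's or DESeq2's adjusted test.

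Between Sox6-only and Vsx1-only cells the members at 50 CPM or more that lay furthest toward Vsx1-only cells were Ndufb7 (log2 fold change -0.77 ± 0.52), Ndufa2 (-0.66 ± 0.47), Uqcrq (-0.65 ± 0.32), Cox5a (-0.48 ± 0.26) and Ndufa5 (-0.46 ± 0.28). Ndufb7 and Ndufa5, both accessory subunits of complex I, kept this direction in 4 of 4 retinas and the other 3 in 3 of 4. On the Sox6-only side Atp5sl (0.63 ± 0.62), Cox7a2l, Ndufa10 (0.39 ± 0.33), Cox7b (0.35 ± 0.28) and Uqcrc1 (0.31 ± 0.19) were furthest. None of these 10 passed. Of the rare isoforms, Cox6b2 was at 3.09 CPM in Vsx1-only and 0.560 CPM in Ddit4l-only cells (log2 fold change 2.18 ± 1.36). It was found in 6 of 60 Vsx1-only and 7 of 59 Ddit4l-only cells. Vsx1-only cells were higher in 1la and 2Ra, Ddit4l-only cells in 2la, and both were at 0 in 1Ra. Cox4i2 had a log2 fold change of 3.53 ± 1.97 for Vsx1-only over Ddit4l-only cells. It was found in 2 of 60 Vsx1-only cells, at 20.4 CPM in 2Ra, 0.155 in 1la and 0 in 1Ra and 2la. Neither passed in that contrast. Cox4i2 was called by DESeq2 for Sox6-only over Ddit4l-only cells (adjusted p 0.045), on counts in 14 of 151 and 3 of 59 cells, shares of 9.27% (5.16% to 15.1%) and 5.09% (1.06% to 14.1%) whose intervals overlap.

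Glycolytic genes, taken as a comparison list, went the other way from the members. Their summed TPM was 32524 in 1la and 39029 in 1Ra, and 31876 in 2la and 25878 in 2Ra in Sox6-only cells and 23634, 24628, 23238 and 17734 in Ddit4l-only cells. Of 17 genes 16 were higher in Sox6-only than in Ddit4l-only cells (median log2 fold change 0.60), 0 of them called by edgeR, 14 at an unadjusted p under 0.05 and 5 called by DESeq2. Cytosolic ribosomal protein genes were lower in Sox6-only than in Ddit4l-only cells in 78 of 81 (median -0.52), and mitochondrially encoded subunits had a median of -0.01. The rod list was higher in Sox6-only cells in 7 of 10 (median 0.90), with a summed TPM of 1375 to 2970 over the retinas in Sox6-only, 971 to 3985 in Vsx1-only and 812 to 2412 in Ddit4l-only cells. None of its 10 genes was absent from the kept cells, although Pdc, Pde6b, Nrl, Nr2e3 and Cnga1 were at 0 in the median cell. The cone list was higher in Sox6-only than in Ddit4l-only cells in 6 of 7 (median 1.32), with a summed TPM of 2018 to 2547 in Sox6-only, 2377 to 4819 in Vsx1-only and 542 to 896 in Ddit4l-only cells. The Müller glia and amacrine lists had medians of 0.78 (6 of 8 higher) and 1.36 (5 of 7 higher) in that contrast. The part of these transcripts in the members' differences was not tested.

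Within a retina, cells with a larger share of members also had a larger share of ribosomal protein transcripts (Spearman rho 0.67 to 0.73 over 70 to 88 cells of a retina) and of mitochondrially encoded transcripts (0.32 to 0.70). All 3 shares come from the same library and add to the same total, so these are descriptions. Correlations between single members were low: over the 1711 pairs of 59 members among Sox6-only cells of a retina, the median rho was 0.03 to 0.08 over 30 to 46 cells. Of these pairs, 56.3% (1Ra) to 70.7% (2la) were positive. Many members were not found in every cell (Ndufb6 in 66.7% of kept cells), so a low rho does not show that members vary independently.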

How the data were processed

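Single sorted cells of 4 retinas were measured by Smart-seq2. The authors deposited RSEM expected counts, not normalised, and TPM per gene and cell. The tools named are RSEM 1.2.28 and TopHat2 2.0.10, with the assembly mm10, per the submitters' processing notes. The annotation is not given in the sources used here. Estimated counts split reads among similar genes, so values of near-identical copies are uncertain.

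Cells with at least 3000 genes at an expected count of 1 or more were kept, and 62 were left out. Kept cells had a median of 759554 to 1258580 counts per retina. Marker groups had 1 of Sox6, Vsx1 and Ddit4l at 20 TPM or more. Expected counts were summed per retina, or per mouse and marker group, rounded and tested with edgeR 4.0.16 (quasi-likelihood, TMM, filterByExpr, limma 3.58.1, R 4.3.3), adjusted over all genes by Benjamini-Hochberg, with DESeq2 1.42.0 as the alternative. CPM were computed here with TMM-scaled library sizes, and with plain library totals where given per retina and marker group. Ra and la retinas were compared without a block and marker groups with the mouse as a block. Retinas with the same number come from the same mouse. With or without the block edgeR called 0 members, so there was no member call that could change. DESeq2 was not run with the block switched. Tables were handled in Python 3.11.15 (pandas 2.3.3, numpy 2.4.6). The edgeR fits were also run on simulated counts, drawn independently with the same spread for all genes and no mouse effect. That setting differs from these data, so it does not test the fits in this design.

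Named members were all called ones, or the 5 furthest on each side at 50 CPM or more where fewer than 5 were called, the 3 highest of each complex, tissue isoforms and paralogs, members under 1 TPM in each retina and members at least 2-fold apart between marker groups in both mice. The 10 further members called by DESeq2 and Sdhd were named after their values were seen. The members and the lists were chosen with earlier results of these data known. Alternatives covered the cell filter, the marker threshold, the count filter, scaling, single retinas, cells rich in rod transcripts and the block. Offsets for length and GC content (GENCODE vM21, 91 of 92 members), the Vsx1-only or Ddit4l-only cells alone and the la or Ra retinas alone were added after seeing the data. Gene positions and promoters are those of RefSeq (GRCm38.p6, the build called mm10). No labels name separate litters or cultures, and p-values measure the spread between these retinas or mice.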

Additional observations from a re-analysis of the deposited data

Results flagged for a closer look

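Over all kept cells, the complex I assembly factors went in opposite directions in the 2 mice. Their summed TPM in Ra was 1.52 times that in la in mouse 1 (215.8 against 142.1 TPM) and 0.907 times in mouse 2 (177.3 against 195.4 TPM), while complexes I, III, IV and V had ratios above 1 in both mice. Ndufaf3 (1.86 and 0.474 times) and Ndufaf7 (2.05 and 0.563 times) had the same pattern, and Ndufaf4 was higher in Ra in both mice (2.23 and 1.30 times). By marker group the summed ratios for mouse 1 and mouse 2 were 1.63 and 0.905 in Sox6-only, 1.09 and 1.10 in Vsx1-only and 2.03 and 1.15 in Ddit4l-only cells, so only Sox6-only cells showed the opposite directions. The difference between the mice was not tested.

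The 62 cells with fewer than 3000 genes, which no comparison used, also held member transcripts. Members made up 1.45% of the summed counts of these cells, against 0.973% to 1.34% in the kept cells of a retina. A sum is weighted toward the cells with most counts. These cells were shallow, with a median of 8838 counts, 788 genes and 14 members found, against 1065570 counts, 6354 genes and 63 members in kept cells. In TPM their median share was 0.937%, with quartiles of 0.174% and 2.02%, a wider range than in the kept cells of any retina.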

How the results depend on the processing

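Over 66 alternatives with edgeR's quasi-likelihood test, 0 members were called in any of the 4 contrasts. DESeq2 called 15 members for Ra against la retinas, 2 for Sox6-only against Ddit4l-only and 1 for Vsx1-only against Ddit4l-only cells. With the mouse number as a replicate block, the Ra and la median was 0.50, with 0 members called by edgeR and 28 at an unadjusted p under 0.05. With no replicate block the medians were -0.08 for Sox6-only against Vsx1-only, -0.19 for Sox6-only against Ddit4l-only and -0.12 for Vsx1-only against Ddit4l-only cells. Leaving out a retina at a time, where the lone retina is assumed to vary like the others, gave medians of 0.43 to 0.62 for Ra against la, -0.11 to -0.04, -0.23 to -0.11 and -0.19 to -0.01 for the marker contrasts in this order. Over all alternatives the Ra and la median lay between 0.43 and 0.62, and that of Vsx1-only against Ddit4l-only cells between -0.20 and -0.01. With offsets for GC content and length the median was -0.33 for Sox6-only against Ddit4l-only and -0.15 for Sox6-only against Vsx1-only cells, and the latter was -0.14 in Ra retinas alone. The mean of the retina medians of the members' share moved from 1.50% to 1.56% (la) and from 2.12% to 2.37% (Ra) with TPM rescaled without mitochondrially encoded genes, and to 1.57% and 2.28% without cells at 1000 rod TPM or more.

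Of 802 alternatives for 46 single genes and contrasts, 17 reversed a direction, in 9 of them, all for members that passed no test by edgeR. For Ra against la these were Ndufa10 (0.067) and Ndufa8 (0.015) without rod-rich cells, Sdhc (0.24) in Sox6-only cells alone, Cox7a2l (0.11), Ndufa10 (0.37) and Ndufa8 (0.34) in Vsx1-only cells alone and Ndufa8 (0.33) in Ddit4l-only cells alone. In la retinas alone, Atp5sl (-0.15) and Cox5a (0.028) reversed for Sox6-only against Vsx1-only cells, Ndufv3 (-0.053) for Sox6-only against Ddit4l-only and Cox4i2 (-1.60) for Vsx1-only against Ddit4l-only cells, where Cox6b2 reversed without rod-rich cells (-1.57). Without a retina at a time, Ndufa10 ranged from -0.34 to 0.030, Ndufa8 from -0.33 to 0.078 and Sdhc from -0.32 to 0.12 for Ra against la, and Cox4i2 from -1.75 to 10.6 for Vsx1-only against Ddit4l-only cells. The cause was not tested. Members at an unadjusted p under 0.05 for Ra against la numbered 15, 11 and 8 in Sox6-only, Vsx1-only and Ddit4l-only cells alone, and those for Sox6-only and Vsx1-only against Ddit4l-only cells fell to 1 each without 1la. Depth limits the isoforms seen in few cells, for which a fitted fold change depends on single cells.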
